A study of Bos taurus with 18 samples.

Results

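The mature miRNAs miR-10a, miR-10b, miR-196a and miR-196b come from hairpins inside the HOX gene clusters, and they are described here in rumen papillae, the finger-like projections that line the largest forestomach of the cow. The 4 members were chosen by name, as the bovine entries bta-miR-10a, bta-miR-10b, bta-miR-196a and bta-miR-196b of the library files, out of 966 names and 824 miRNAs once several names for the same miRNA were joined. Small RNA was sequenced from 18 biopsy libraries of 9 rumen-cannulated Holstein cows that were not in milk, which ate forage only and then a diet with 65% concentrate. HG_PHY (4 libraries) holds cows on high grain with the supplement labelled PHY, HG_CON (5 libraries) control cows on high grain, FD_PHY (4 libraries) the supplemented arm on forage, and FD_CON (5 libraries) the control arm on forage. The sources used here do not say what PHY stands for, how old the cows were or whether the supplement was already fed on forage. Forage feeding came before grain feeding in every cow, so diet and time cannot be told apart. A papilla holds epithelium, connective tissue and vessels, and in such bulk samples fewer cells of a type and less RNA per cell cannot be told apart.

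HOX genes encode transcription factors that are switched on in overlapping domains from head to tail in the order in which they lie in their cluster, and cells of the adult body keep much of that pattern as a mark of position. The hairpins of miR-10 and miR-196 lie between HOX genes and are transcribed in similar domains, miR-10 with the genes of the front part of the clusters and miR-196 with those of the rear part. Some of their known targets are HOX transcripts: in mouse, miR-196 directs the cleavage of Hoxb8 mRNA, and in human breast cancer cells miR-10b represses HOXD10. HOX transcripts were not measured here.

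In the RefSeq table of bovine genes (assembly ARS-UCD2.0), all 4 members had their hairpin beside or within a HOX gene. The miR-10a hairpin (MIR10A) lies on chromosome 19 between HOXB5 and HOXB4, within the span of the HOXB3 record, and the miR-10b hairpin (MIR10B) on chromosome 2 within the span of HOXD4. miR-196a has a pair of hairpins, MIR196A-1 on chromosome 19 within the span of HOXB9 and MIR196A-2 on chromosome 5 between HOXC9 and HOXC10, whereas the miR-196b hairpin (MIR196B) lies on chromosome 4 between HOXA10 and HOXA9, within the span of LOC132345112. The first positions that the library files give for the 4 mature miRNAs are on chromosomes 19, 2, 5 and 4. These are the chromosomes of MIR10A, MIR10B, MIR196A-2 and MIR196B. Further positions were not read, so the level of miR-196a is not assigned to either of its hairpins. The sources used here name no genome build for the files, and their positions differ from those of the RefSeq table, so no coordinates are printed, and the table holds no exons from which an exonic or intronic place could be read.

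Each library held between 5.74 M and 15.2 M reads (M, 1000000 reads) when each read was counted once, and 515 to 591 miRNAs were listed in each. The epithelial markers of the tissue were abundant, with a summed level of the 6 measured markers between 50196 and 71561 CPM (counts per 1000000 reads, scaled by the trimmed mean of M-values, TMM). miR-205, typical of stratified epithelia, had a mean of 28643 CPM. The epithelial marker miR-203 was looked for, and no entry of that name was found. Names with a further letter after miR-203 were not searched, so its absence from the tissue is not shown. Markers of smooth muscle (103330 to 299690 CPM), endothelium (9452 to 16158 CPM) and mesenchyme (5564 to 9945 CPM) were also present in every library. Markers of columnar gut epithelium summed to between 918 and 1136 CPM. Replicates are libraries that the labels number within a group; the labels do not say which cow each came from, so p-values measure the spread between these libraries.

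Of the 4 members, miR-10b was the most abundant and miR-196b the scarcest. Over the 18 libraries miR-10b averaged 1669 ± 360 CPM, miR-10a 1075.5 ± 243 CPM, miR-196a 8.98 ± 3.09 CPM and miR-196b 1.28 ± 1.68 CPM (SD, n = 18). Divided by the mature length (23 nt, and 22 nt for miR-196a), the mean levels came in the same order, at 72.6, 46.8, 0.408 and 0.0556 CPM per nt. miR-10b was above miR-10a in 18 of 18 libraries and miR-10a above miR-196a in 18 of 18, while miR-196a was above miR-196b in 17 of 18. miR-10b and miR-10a lay at ranks 46 to 65 and 62 to 84 of the miRNAs in a library, miR-196a at 242 to 315 and miR-196b at 289 to 523. Together the 4 members made up between 0.217% and 0.362% of the reads of a library, nearly all of it from the miR-10 pair.

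The depth behind these values differed as widely. miR-10a had 5001 to 21816 raw reads per library and miR-10b 7501 to 27287, spread over 59 to 127 and 56 to 156 distinct read sequences. miR-196a had 29 to 162 raw reads and miR-196b 2 to 47, with a median of 6.5, so that its level rests on a handful of reads in most libraries. A count of 4 reads, as in FD_CON 2, has a 95% Poisson interval of 1.09 to 10.2 reads, which covers counting error only. Within groups the log2 CPM of miR-10a and miR-10b varied with an SD of 0.27 and 0.29, against a median of 0.42 over the 468 miRNAs that passed the filter on low counts. miR-196a had 0.50 and miR-196b 1.02, a spread larger than that of 92.1% of the miRNAs tested.

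miR-10a and miR-10b are close paralogs, and miR-196a and miR-196b are likewise close, so reads that fit both members of a pair matter for their levels. The authors' adjusted count divides a read over the names and loci that it fits. For miR-10a and miR-10b the raw count exceeded the adjusted count by the same amount in 18 of 18 libraries, as 0 to 27 reads per library divided over both would give, at most 0.237% of the miR-10a reads. The levels of the miR-10 paralogs were therefore almost free of shared reads in these files. For miR-196b the adjusted count was 0.5 of the raw count in every library, and the human entry hsa-miR-196b-5p held the same raw and adjusted counts as the bovine one in 18 of 18 libraries. For miR-196a, which has a human entry of equal counts and more than 1 hairpin, the ratio was 0.25 to 0.392. Raw counts under the bovine names were used for the tests, and adjusted counts as an alternative.

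**Figure D1:**
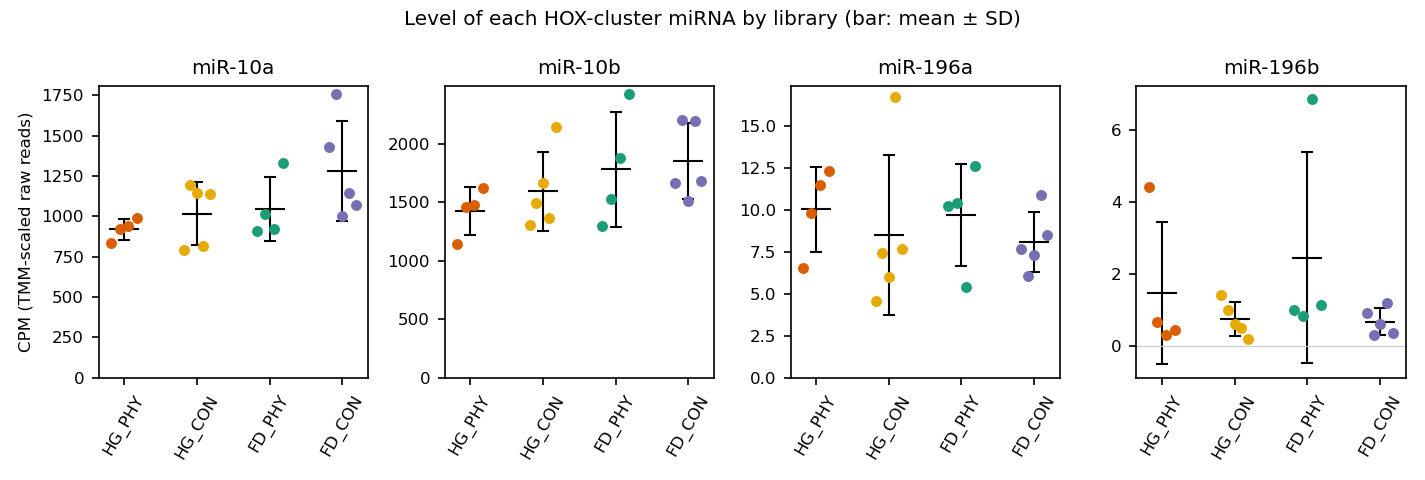
Level of miR-10a, miR-10b, miR-196a and miR-196b in CPM (vertical axis, linear, separate scale per panel) in each of the 18 libraries (points), by group, with the group mean and SD (black). miR-10a and miR-10b lie between 792 and 2429 CPM with overlapping groups, and miR-196b stands at 6.86 CPM in FD_PHY 3 and 4.42 CPM in HG_PHY 1, against at most 1.42 CPM elsewhere.

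The first comparison asked whether the members differed between grain and forage feeding. miR-10a stood at 832, 924, 938 and 989 CPM in HG_PHY and at 792, 1197, 1144.5, 815 and 1141 CPM in HG_CON, against 910.03, 1017.5, 924 and 1330.5 CPM in FD_PHY and 1427, 1759.8, 1005, 1144 and 1068 CPM in FD_CON. The highest values were those of the forage libraries FD_CON 2, FD_CON 1 and FD_PHY 4, and 3 grain libraries lay below every forage library, but the ranges overlapped. Its mean was 974.7 ± 154 CPM on grain and 1176 ± 280 CPM on forage (SD, n = 9 each), and 8 of 9 grain libraries lay under the mean of the forage libraries. The log2 change was -0.26 ± 0.12 (SE), which did not pass edgeR's quasi-likelihood test after Benjamini-Hochberg adjustment over all miRNAs (adjusted p = 0.452).

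miR-10b, the more abundant paralog, stood at 1144, 1455, 1474 and 1625.5 CPM in HG_PHY and at 1307, 1489, 1663, 1365 and 2142 CPM in HG_CON, against 1299, 1524, 1875 and 2429 CPM in FD_PHY and 1667, 2201, 1507, 2195 and 1684 CPM in FD_CON. FD_PHY 4 was the highest library and HG_PHY 1 the lowest, and HG_CON 5 was the only grain library above the forage mean. The means were 1518 ± 282 CPM on grain and 1820.1 ± 381 CPM on forage (SD, n = 9 each). The log2 change of -0.27 ± 0.13 did not pass either (edgeR adjusted p = 0.452), and it came to -0.18 without FD_PHY 4.

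miR-196a stood at 6.56, 9.80, 11.5 and 12.3 CPM in HG_PHY and at 4.59, 7.43, 5.98, 16.7 and 7.69 CPM in HG_CON, against 10.2, 10.4, 5.40 and 12.6 CPM in FD_PHY and 7.68, 6.05, 7.32, 10.9 and 8.51 CPM in FD_CON. HG_CON 4, with 162 reads (95% Poisson interval 138 to 189), was the highest library and HG_CON 1 the lowest, both on grain. The grain and forage means, 9.17 ± 3.80 and 8.79 ± 2.40 CPM (SD, n = 9 each), differed by less than the spread, with a log2 change of 0.07 ± 0.23 (edgeR adjusted p = 0.921) whose sign was negative without HG_CON 4 (-0.13) and on adjusted counts (-0.0033).

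miR-196b had 29, 6, 3 and 6 raw reads in HG_PHY and 9, 10, 6, 5 and 2 in HG_CON, against 7, 8, 47 and 12 in FD_PHY and 11, 4, 6, 12 and 4 in FD_CON. FD_PHY 3 and HG_PHY 1 stand apart from the other 16 libraries, and the remaining counts of both diets overlap. It passed the filter on low counts with 6 of 18 libraries at or above the filter's level of 1.05 CPM. Its log2 change on grain was -0.34 ± 0.57 (edgeR adjusted p = 0.886), and its sign turned with 1 library: it was 0.30 without FD_PHY 3 and -1.09 without HG_PHY 1.

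edgeR called 1 of the 468 miRNAs tested for diet over both arms (miR-320a), or 0.214%, and 0 of the 4 members. At an unadjusted p under 0.05 stood 10.7% of all miRNAs tested, and among the members miR-10a and miR-10b. Over all miRNAs tested the median log2 change was -0.01, 50.9% lay below 0, and the median size of a change was 0.17, below that of both miR-10 paralogs. Below 0 lay 3 of the 4 members, miR-10a, miR-10b and miR-196b, though miR-196b lay above 0 without FD_PHY 3. Scaled by library totals only, the changes were -0.15 for miR-10a and -0.16 for miR-10b, and the median of all miRNAs moved to 0.09.

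Within each arm the diet change of both miR-10 paralogs lay below 0, and no member passed. In PHY cows the diet log2 change was -0.18 ± 0.18 for miR-10a and -0.32 ± 0.19 for miR-10b, and for each of them all 4 HG_PHY libraries lay under the FD_PHY mean. Without FD_PHY 4 these changes were -0.05 and -0.14. In CON cows it was -0.33 ± 0.16 for miR-10a, with 5 of 5 HG_CON libraries under the FD_CON mean, and -0.22 ± 0.17 for miR-10b, with 4 of 5. The miR-10b change in CON was -0.13 without HG_CON 1 and -0.34 without HG_CON 5. With library totals only, the CON changes were -0.13 for miR-10a and -0.02 for miR-10b. That scaling also moved the median of all miRNAs in CON, from -0.02 to 0.17. miR-196a had 0.05 ± 0.35 in PHY and 0.08 ± 0.31 in CON, and miR-196b -0.78 ± 0.82 in PHY and 0.11 ± 0.79 in CON. The miR-196b change in PHY was 0.50 without FD_PHY 3 and -2.27 without HG_PHY 1, and that in CON turned below 0 when HG_CON 1 (-0.20), HG_CON 2 (-0.06), FD_CON 2 (-0.13) or FD_CON 5 (-0.05) was left out. Of the 468 miRNAs, edgeR called 0 for diet in the PHY arm (7.05% had an unadjusted p under 0.05 and 49.4% lay below 0) and 0 in the CON arm (10.7% and 53.8%); limma-voom with quality weights called 1 in the PHY arm. The lowest adjusted p of a member was 0.810 in PHY and 0.469 in CON. The interaction, the diet change in PHY minus that in CON, was 0.15 ± 0.24 for miR-10a, -0.11 ± 0.26 for miR-10b, -0.02 ± 0.47 for miR-196a and -0.89 ± 1.14 for miR-196b (edgeR adjusted p = 0.997 each), with 0 of 468 miRNAs called, 2.14% at an unadjusted p under 0.05 and 43.6% below 0.

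The second question was whether the supplemented arm differed from the control arm on the same diet, a comparison between different cows. On forage miR-10a averaged 1045.5 ± 195.9 CPM in FD_PHY (n = 4) and 1281 ± 313 CPM in FD_CON (n = 5), a log2 change of -0.29 ± 0.17, and miR-10b 1782 ± 492 CPM in FD_PHY and 1851 ± 324 CPM in FD_CON (-0.05 ± 0.18, and 0.092 when scaled by library totals only). Library totals moved the median of all miRNAs in this comparison from -0.04 to 0.12. miR-196a had a log2 change of 0.26 ± 0.33. miR-196b averaged 2.46 ± 2.93 CPM in FD_PHY and 0.692 ± 0.377 CPM in FD_CON, a log2 change of 1.80 ± 0.79 with an unadjusted p of 0.0331 in edgeR (adjusted p = 0.929). That value rests on FD_PHY 3: without it the log2 change was 0.52. FD_PHY 1, FD_PHY 3 and FD_PHY 4 were among the 6 libraries at or above the filter's level for miR-196b. Its test on forage thus depends on the group where it was high. All 4 adjusted p-values were 0.929 or more, and edgeR called 0 of 468 miRNAs, with 4.70% at an unadjusted p under 0.05 and 55.6% below 0; DESeq2 called 1.

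On high grain miR-10a averaged 921 ± 65.6 CPM in HG_PHY (n = 4) and 1018 ± 197 CPM in HG_CON (n = 5), and miR-10b 1425 ± 202 CPM in HG_PHY and 1593 ± 336 CPM in HG_CON, with log2 changes of -0.14 ± 0.17 and -0.16 ± 0.18. miR-196a averaged 10.03 ± 2.54 CPM in HG_PHY and 8.48 ± 4.77 CPM in HG_CON (0.24 ± 0.33). miR-196b had 0.91 ± 0.82, which turned to -0.57 without HG_PHY 1. The lowest adjusted p of a member was 0.768, and edgeR called 0 of 468 miRNAs, with 6.84% at an unadjusted p under 0.05 and 49.8% below 0; DESeq2 called 2.

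**Figure D2:**
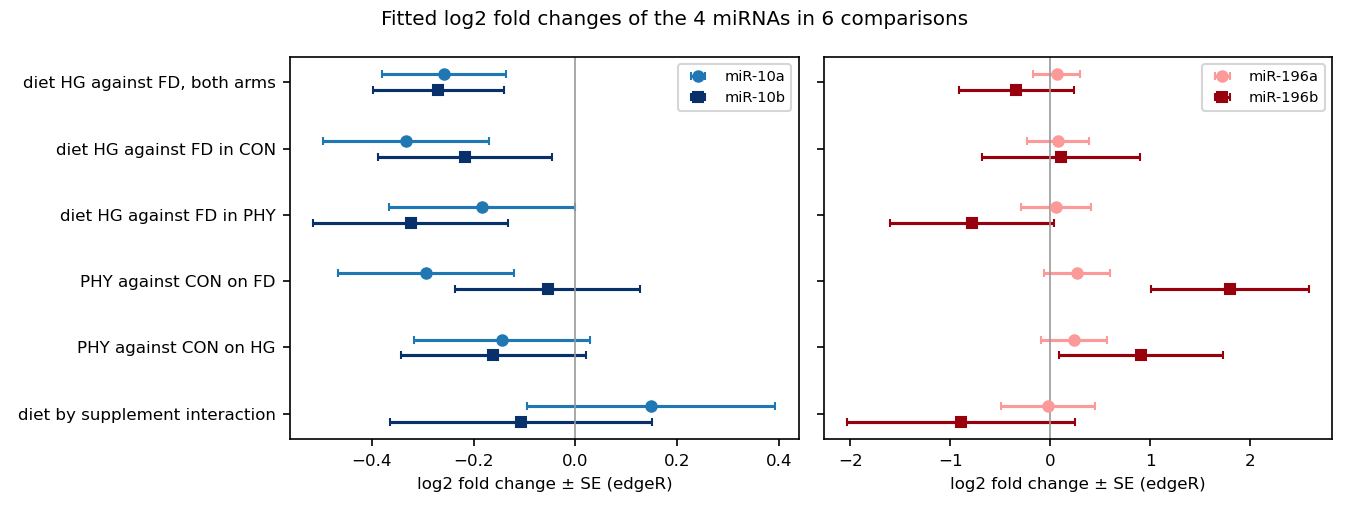
Fitted log2 fold changes (horizontal axis) with their SE in the 6 comparisons (rows) for miR-10a and miR-10b (left) and miR-196a and miR-196b (right, wider scale). The miR-10 paralogs lie at or below -0.18 in all 3 diet rows, and the bars of miR-196b reach over 0.5 to each side.

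A ratio of paralogs within a library does not depend on scaling between libraries. The permutation tests of the ratios exchanged libraries freely between diets, with no cow term, although the 18 libraries come from 9 cows. The log2 ratio of miR-10a to miR-10b was -0.63 ± 0.17 on grain and -0.63 ± 0.27 on forage (SD, n = 9 each), a difference of -0.00013 (exact permutation test, two-sided, p = 0.999). The level of miR-10b was between 1.17 times that of miR-10a (FD_CON 1) and 2.03 times (FD_PHY 3), with a median of 1.57 over the 18 libraries. In PHY cows the log2 ratio was -0.62 ± 0.11 on grain and -0.75 ± 0.24 on forage (n = 4 each, exact permutation p = 0.400), and in CON cows -0.65 ± 0.23 on grain and -0.55 ± 0.28 on forage (n = 5 each, exact permutation p = 0.524). Over both arms the proportion of the miR-10 paralogs thus differed between diets by less than the spread of the libraries. By arm the difference lay on opposite sides of 0, at 0.13 in PHY cows and -0.10 in CON cows. The PHY difference was above the SD on grain and below that on forage.

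The ratio of miR-196a to miR-196b ranged far more widely, from 0.787 in FD_PHY 3 to 36.3 in HG_PHY 3. On the log2 scale it was 3.46 ± 1.57 on grain and 3.09 ± 1.36 on forage (SD, n = 9 each), a difference of 0.37 (exact permutation p = 0.604). In PHY cows it was 3.46 ± 2.01 on grain and 2.47 ± 1.88 on forage (n = 4 each, exact permutation p = 0.457), and in CON cows 3.46 ± 1.39 on grain and 3.59 ± 0.60 on forage (n = 5 each, exact permutation p = 0.881). After Benjamini-Hochberg adjustment over the 6 ratio tests the lowest exact permutation p was 0.907. The smallest unadjusted p that these unpaired permutations allow is 0.0286 with 4 libraries a group and 0.00794 with 5.

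**Figure D3:**
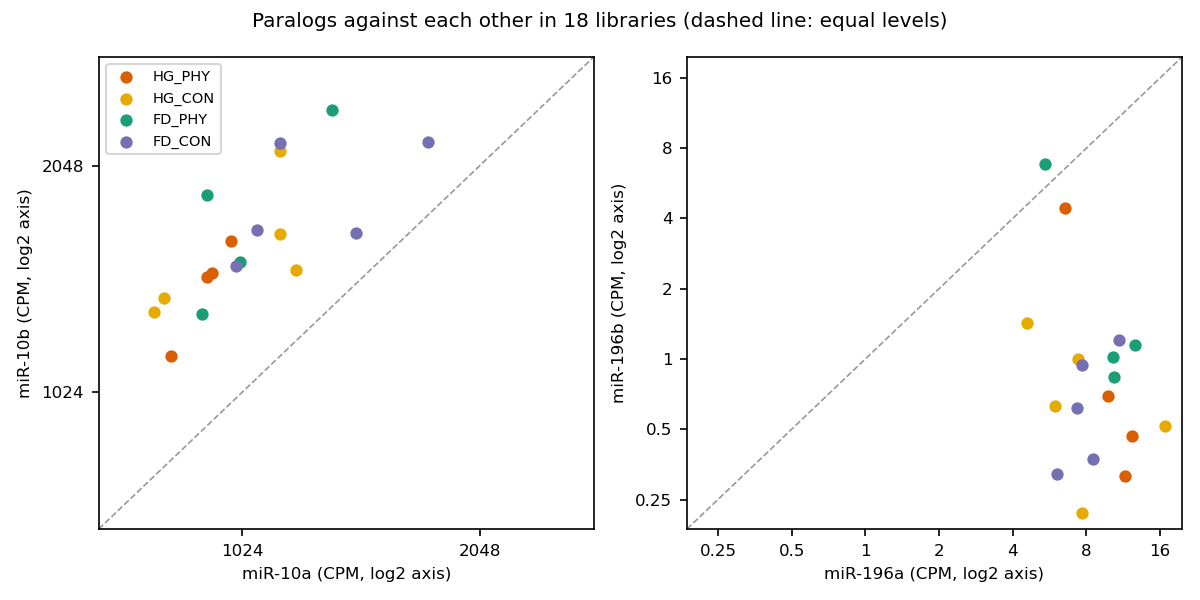
miR-10b against miR-10a (left) and miR-196b against miR-196a (right) in CPM on log2 axes, 1 point per library, coloured by group, with a dashed line at equal levels. All 18 libraries lie above the line for miR-10b, and FD_PHY 3 is the only library above it for miR-196b.

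miR-10a and miR-10b varied together over the libraries. Over the 18 libraries, which come from 9 cows and share their scaling, Pearson's r of log2 CPM was 0.73 between miR-10a and miR-10b (Spearman's rho 0.78). With miR-196a it was -0.11 for miR-10a and 0.05 for miR-10b. With miR-196b it was -0.33 for miR-10a, -0.20 for miR-10b and -0.38 for miR-196a. These are descriptions without a test. The reads of miR-196b, a median of 6.5 per library, are too few to tell a weak correlation from counting error. Among 464 other miRNAs tested, the 3 most like miR-10a were miR-100 (r 0.87, rho 0.86), miR-11977 (r 0.84, rho 0.77) and hsa-miR-145-3p (r 0.82, rho 0.82), an arm of the smooth muscle miRNA miR-145. The 3 most like miR-10b were miR-100 (r 0.76, rho 0.73), miR-125b (r 0.75, rho 0.70) and miR-218 (r 0.75, rho 0.74). miR-100 thus headed both lists. For the scarce members the likeness was lower or rested on few reads: miR-196a was nearest to let-7e (r 0.68), miR-183 (r 0.64) and miR-10174-5p (r 0.59), and miR-196b to miR-323 (r 0.81), miR-217 (r 0.70) and miR-744 (r 0.62).

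miR-100 and miR-125b belong to the relatives of miR-10 outside the HOX clusters, the miR-99, miR-100 and miR-125 miRNAs, which are grouped with miR-10 in a family of related sequences. All 7 of the relatives found were tested, among them both arms of miR-99a and of miR-99b. On grain 6 of 7 had a log2 change below 0, against 50.9% of all miRNAs tested. Arms of the same hairpin are counted separately here, so the 7 are not independent. Their median was -0.17, against -0.01 for all miRNAs. None passed edgeR's test after adjustment. An unadjusted p under 0.05 was found for 2 of the 7, miR-125b and miR-125a, and for 10.7% of all miRNAs tested. miR-99a-5p, the most abundant, averaged 2909 ± 509 CPM on grain and 3332 ± 1032 CPM on forage (log2 change -0.19 ± 0.16), and miR-125b 1427 ± 213 CPM on grain and 1929 ± 419 CPM on forage (-0.43 ± 0.13; edgeR adjusted p = 0.165). miR-125a had -0.40 ± 0.12 (edgeR adjusted p = 0.189) and miR-99b -0.03 ± 0.15. miR-100, whose profile was nearest to those of both miR-10 paralogs, had -0.11 ± 0.11.

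**Figure D4:**
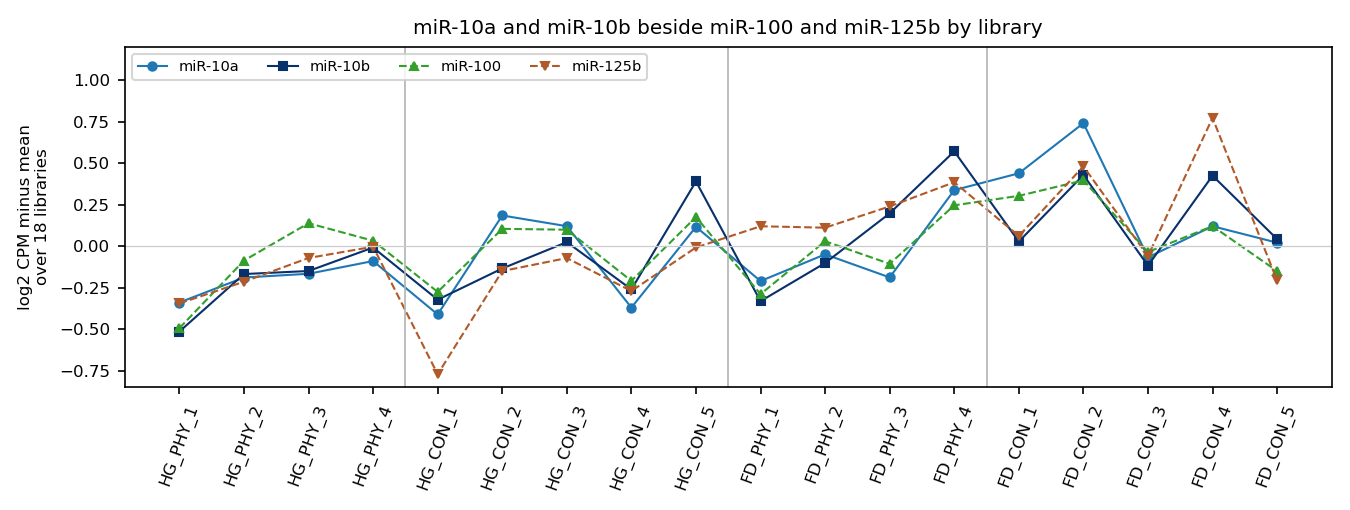
log2 CPM of miR-10a, miR-10b, miR-100 and miR-125b minus each one's mean over 18 libraries (vertical axis), by library, with vertical lines between groups. All 4 lie below 0 in HG_PHY 1, HG_PHY 2, HG_CON 1, HG_CON 4 and the forage library FD_CON 3, and above 0 in FD_PHY 4, FD_CON 1, FD_CON 2 and FD_CON 4.

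Markers of smooth muscle, mesenchyme and endothelium had diet changes on the same side of 0 as miR-10. The smooth muscle markers had log2 changes below 0 in 3 of 3 tested, with a median of -0.46. They summed to between 103330 and 133640 CPM on grain (median 108380) and between 129710 and 299690 CPM on forage (median 144320). Those of mesenchyme were below 0 in 5 of 5 (median -0.25; 5564 to 8975 CPM on grain and 6194 to 9945 CPM on forage), and those of endothelium in 2 of 2 (median -0.23; 9452 to 14189 CPM on grain and 13013 to 16158 CPM on forage). Epithelial markers were above 0 in 4 of 6 (median 0.04; 50196 to 69567 CPM on grain and 52551 to 71561 CPM on forage). By arm they were above 0 in 6 of 6 in PHY (median 0.12) and below 0 in 5 of 6 in CON (median -0.04). Striated muscle markers were below 0 in 2 of 2 tested (median -0.25), leukocyte markers in 3 of 5 (median -0.16) and columnar gut markers in 3 of 5 (median -0.03), whereas erythroid markers were above 0 in 3 of 3 (median 0.20; 6415 to 18352 CPM on grain and 6404 to 14199 CPM on forage). Over all miRNAs tested, 50.9% lay below 0. Arms of the same hairpin are counted separately in these lists, so the counts are not of independent markers. The endothelial markers are both arms of miR-126, and those of smooth muscle are miR-143 and both arms of miR-145. Those of mesenchyme include both arms of miR-199a and of miR-214. No marker of these 8 lists passed edgeR's test after adjustment. The part of the cell types that these markers stand for in the miR-10 values was not tested.

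Of the other products of HOX-cluster hairpins, miR-615, from a hairpin within the span of HOXC5 on chromosome 5 (MIR615), was listed in 3 of 18 libraries with 9 reads in all: 2 reads in HG_CON 4, 5 in FD_CON 2 and 2 in FD_CON 5. The files list a name from 2 reads upward. The other arms of the miR-10 and miR-196 hairpins were looked for by name, and the files listed none.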

How the data were processed

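Biopsy RNA was isolated with a NucleoSpin miRNA kit and turned into NETflex small RNA libraries, per the labels' protocols. Tools named in the submitters' processing notes are bcl2fastq 2.20 and DESeq2; no aligner, counter or genome build is stated there. Per the file headers, each library's file holds raw read counts and expected counts (raw reads that the authors divided over multiple mappings). The deposited table of normalized signal for 673 names gave whole reads within 0.01 reads for 100% of values, each equal to the rounded adjusted count; edgeR on these reads called 2 miRNAs for diet over both arms.

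Names overlapping by at least 15 nt, or bovine and human entries of an miRNA with totals within 5%, were joined. edgeR 4.0.16 (R 4.3.3; TMM, filterByExpr, quasi-likelihood, 4 group means, 18 libraries, no cow term) tested 468 miRNAs, checked on simulated data; p-values were adjusted by Benjamini-Hochberg over all, threshold 0.05. Ratios used raw counts + 0.5. Alternatives comprised other counts, scalings, filters, tools (DESeq2 1.42.0, limma 3.58.1), blocks and libraries left out. Named beside the members were the 3 miRNAs with the highest Pearson r to each, and the listed relatives. Members and lists were chosen with earlier results of these data known.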

Additional observations from a re-analysis of the deposited data

Results flagged for a closer look

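In 3 of the 16 sets formed by a member and a group, a library stood far from the others of its group. The nominal rate of such flags is about 1 in 20. That rate was not checked for low, skewed counts such as those of miR-196b, so no excess over chance is read from the flags. miR-196b was at 6.86 CPM (47 reads, 95% Poisson interval 34.5 to 62.5, in 10 distinct sequences) in FD_PHY 3, against 0.833 to 1.15 CPM in the other FD_PHY libraries. It was at 4.42 CPM (29 reads, interval 19.4 to 41.6, in 5 distinct sequences) in HG_PHY 1, against 0.315 to 0.692 CPM in the other HG_PHY libraries. miR-196a was at 16.7 CPM in HG_CON 4, against 4.59 to 7.69 CPM in the other HG_CON libraries.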

How the results depend on the processing

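No member passed the threshold in any of 742 alternative values (lowest adjusted p 0.226). These include values without an adjusted p, such as that of miR-196b in DESeq2 for diet over both arms. The diet change of miR-10a and miR-10b stayed below 0 in every alternative, in places near 0. With a library left out it was -0.30 to -0.19 for miR-10a and -0.33 to -0.18 for miR-10b over both arms, -0.42 to -0.23 and -0.34 to -0.13 in CON, and -0.25 to -0.05 and -0.45 to -0.14 in PHY. Under other settings it was -0.27 to -0.15 for miR-10a and -0.28 to -0.16 for miR-10b over both arms, -0.34 to -0.13 and -0.23 to -0.02 in CON, and -0.21 to -0.10 and -0.34 to -0.22 in PHY. The number of miRNAs called for diet over both arms, 1 here, was 2 with library totals only, 3 with no filter, 0 with a filter of 10 CPM, 5 with DESeq2, 3 with limma-voom weights, 2 with limma-trend on the authors' table, 2 with names not joined, 0 without the 5 most abundant miRNAs and 0 to 3 with a library left out. In PHY cows voom weights called 1. For PHY against CON on forage, no filter and DESeq2 called 1 each (0 to 1 with a library left out), and on grain DESeq2 called 2 (0 to 2). Library totals moved the median of all miRNAs by 0.10 (diet, both arms), 0.19 (diet in CON), 0.15 (PHY against CON on forage) and -0.18 (interaction).

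Signs turned as follows; the cause was not tested. For miR-196a, the diet change over both arms was -0.0033 on adjusted counts and -0.075 with limma-trend (-0.13 to 0.14 with a library left out). In CON it was -0.065 on adjusted counts and -0.19 with limma-trend (-0.32 to 0.24), and in PHY it ranged from -0.15 to 0.20. Its interaction was 0.12 on adjusted counts, 0.19 with voom weights and 0.23 with limma-trend (-0.23 to 0.38). For miR-196b, voom weights gave -0.17 for diet in CON (-0.20 to 0.39 with a library left out); the ranges were -1.09 to 0.30 for diet over both arms, -2.27 to 0.50 in PHY, -0.57 to 1.30 for PHY against CON on grain and -2.37 to 0.40 for the interaction. For miR-10b, library totals gave 0.092 for PHY against CON on forage (-0.23 to 0.095), and voom weights 0.010 for the interaction (-0.26 to 0.070); for miR-10a the interaction was -0.039 with library totals. With a library left out, the diet difference of the log2 ratio of miR-10a to miR-10b was -0.048 to 0.051, and that of miR-196a to miR-196b was -0.059 to 0.73 over both arms and -0.49 to 0.33 in CON. miR-196b had too few reads for a value on adjusted counts, at 10 CPM and on recovered reads.

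The replicate numbers were not taken as pairs, because the labels do not say whether equal numbers mark the same cow. Of 9 same-numbered pairs, 3 had a correlation of deviations over 0.1 (range -0.02 to 0.39), and 4 matched their own number best. The correlation within arm and number that limma-voom fitted over all miRNAs was 0.23. These values do not settle whether the numbers mark cows. The replicate block called 4 miRNAs for diet over both arms as a fixed term and 3 as a random one. With the fixed block the diet change over both arms was -0.25 for miR-10a (edgeR adjusted p = 0.245) and -0.26 for miR-10b (edgeR adjusted p = 0.235). For miR-196a the block gave -0.034 (fixed) and -0.0068 (random) for diet in CON and 0.11 (fixed) and 0.091 (random) for the interaction.

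Chosen after seeing the data were a pair of alternatives. Reads recovered from the authors' table called 2 miRNAs for diet over both arms, and for miR-196a gave -0.0031 for diet over both arms, -0.063 in CON and 0.12 for the interaction. Without FD_PHY 3 and HG_PHY 1 together, 0 miRNAs were called for diet, miR-196a had -0.00075 for diet in PHY and miR-196b -0.57 for PHY against CON on grain. Reads limit miR-196b, with a median of 6.5 per library.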

Other observations

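FD_PHY 3 and HG_PHY 1, the libraries with most miR-196b, carry different replicate numbers. Both lay above all other 16 libraries for 2 of the 468 miRNAs tested. These were miR-196b, by which the pair was picked, and miR-323 (4.52 and 3.97 CPM, against at most 3.80 CPM). They lay below the other 16 for 2, miR-2316 and hsa-miR-214-5p. How many miRNAs would set apart any other pair of libraries was not tested. In FD_PHY 3 and HG_PHY 1, in that order, miR-196a was at 5.40 and 6.56 CPM, miR-10a at 924 and 832 CPM and miR-10b at 1875 and 1144 CPM. Erythroid markers summed to 12257 CPM in FD_PHY 3 and 16870 CPM in HG_PHY 1, against 6404 to 18352 CPM (median 8422) in the other libraries, and the other cell type marker sums lay within the range of the other libraries except those of columnar gut in HG_PHY 1 (918 CPM, against at least 983 CPM). The relatives of miR-10 outside the HOX clusters summed to 9038 CPM in FD_PHY 3 and to 6225 CPM in HG_PHY 1, against 7059.5 to 11824 CPM in the other 16 libraries. This pair was chosen after its values were seen.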
